A study of Drosophila melanogaster with 2 samples.

Results

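The genes bcd, nkd, tin, elav and sls of Drosophila melanogaster take part in patterning and differentiation of the embryo or, for sls, build the muscle that results, and each has a peak of the CG17612 protein beside its start site. They were chosen by that very property: a thresholded peak of both replicates together has its summit within 500 bp of a start site of the gene. They are 5 of the 1214 protein-coding genes with such a peak, out of 13968 in all (8.69%), so the presence of a peak is not a result here, and what follows describes where the peaks lie, how high they are and how the replicates differ. The assay was ChIP-seq, in which DNA bound by a protein is pulled down and sequenced, on whole embryos aged 0 to 24 hours, a single group of 2 biological replicates. The flies were transgenic for CG17612, a zinc finger protein, joined to eGFP, and the fusion was pulled down with an antibody to GFP per the sample descriptions, although the antibody label names CG17612. Both replicates come from the same fly strain. The promoter that drives the fusion is not given in the sources used here, and whole embryos mix all tissues, so no peak can be assigned to a cell type or to an hour of development. No untreated group or other condition was compared, and with 2 replicates and peak lists that hold no read counts, no test between groups was possible and the depth of each library is unknown.

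The members act at successive steps of development. Bicoid (bcd) is the homeodomain morphogen laid down as maternal RNA at the anterior pole, which switches on gap genes such as hunchback in a graded way. Naked cuticle (nkd) is a feedback antagonist induced by Wingless signalling that binds Dishevelled, Tinman (tin) is the NK homeobox factor that specifies the heart and dorsal mesoderm, ELAV (elav) is an RNA-binding protein of neurons that directs alternative splicing and 3′ end choice, and Sallimus (sls) is a titin-like protein of the sarcomere. Peaks upstream of a start site mark where a factor is bound near a promoter, without telling whether it changes transcription.

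The summits of all 5 start-site peaks, called from both replicates together, lay upstream of the gene. The bcd and nkd peaks themselves extended past the start site into the gene. The sequences between each summit and the start site are given because they hold the summit. Each runs on the strand of the gene, 5′ to 3′, from 50 bp beyond the summit to the last base before the start site, and the last one covers 50 bp on each side of a second elav summit, within the gene. The genome is Release 6 from RefSeq (dm6). Capitals mark matches to GAGAG, the core bound by the GAGA factor, and to TATAAA, the TATA box, on either strand, the only letters found there of the 12 motifs searched.
bcd, chr3R:6759467-6759614, minus strand: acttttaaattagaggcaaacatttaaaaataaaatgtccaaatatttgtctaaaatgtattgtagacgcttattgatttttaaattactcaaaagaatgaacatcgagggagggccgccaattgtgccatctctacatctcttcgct
nkd, chr3L:19045450-19045638, minus strand: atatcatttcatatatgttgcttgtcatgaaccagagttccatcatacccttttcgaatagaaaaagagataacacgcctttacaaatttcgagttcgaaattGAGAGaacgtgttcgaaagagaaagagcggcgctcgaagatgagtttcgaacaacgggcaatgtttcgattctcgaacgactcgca
tin, chr3R:21378750-21378976, plus strand: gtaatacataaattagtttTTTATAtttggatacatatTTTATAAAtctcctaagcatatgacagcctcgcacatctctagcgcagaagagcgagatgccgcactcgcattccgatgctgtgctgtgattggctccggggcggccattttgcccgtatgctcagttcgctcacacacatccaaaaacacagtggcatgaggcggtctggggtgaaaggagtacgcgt
elav, start site, chrX:523227-523518, minus strand: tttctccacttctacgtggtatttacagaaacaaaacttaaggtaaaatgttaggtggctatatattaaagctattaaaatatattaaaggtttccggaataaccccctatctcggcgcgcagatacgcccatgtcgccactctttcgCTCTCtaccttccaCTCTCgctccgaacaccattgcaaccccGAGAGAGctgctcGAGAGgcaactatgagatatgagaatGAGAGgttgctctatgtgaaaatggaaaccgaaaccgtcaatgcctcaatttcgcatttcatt
sls, chr3L:2115612-2115838, minus strand: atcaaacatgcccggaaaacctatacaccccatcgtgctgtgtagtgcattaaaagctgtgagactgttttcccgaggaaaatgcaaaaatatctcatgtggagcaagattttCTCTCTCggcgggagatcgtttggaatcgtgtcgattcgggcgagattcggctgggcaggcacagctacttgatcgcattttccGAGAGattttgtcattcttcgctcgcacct
elav, intron, chrX:522565-522665, minus strand: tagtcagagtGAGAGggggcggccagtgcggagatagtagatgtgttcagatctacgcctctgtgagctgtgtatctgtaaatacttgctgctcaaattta

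The elav peak was the highest of the 5 by far, and the sls peak the lowest. A peak is ranked here by its signal value, a score set by the authors whose scale is not stated, among the 2094 peaks of the conservative list, which keeps peaks reproducible between the replicates at an irreproducible discovery rate (IDR) of 0.01. The start-site peak of elav scored 313 (rank 112), that of tin 135 (rank 586), that of nkd 105 (rank 919), that of bcd 87.9 (rank 1259) and that of sls 83.1 (rank 1359). Among the 874 thresholded peaks within 500 bp of a protein-coding start site, whose median score was 110 (quartiles 82.2 and 170), 7.67% scored at or above elav, 36.2% at or above tin, 53.1% at or above nkd, 68.2% at or above bcd and 73.7% at or above sls. Against such peaks elav and tin were above the median and nkd, bcd and sls between the lower quartile and the median.

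The patterning gene bcd carried a single thresholded peak, with the summit immediately upstream of the only start site of the gene. Gene bcd (FBgn0000166, chr3R:6755842-6759466, minus strand) lies in the Antennapedia complex next to zen, another homeobox gene, and Ama, which encodes a secreted immunoglobulin-domain protein. The peak chr3R:6759402-6759725 had its summit 98 bp upstream of the start site, outside every annotated transcript. Its score was 51.5 in the own list of replicate 1 and 39.0 in that of replicate 2 (mean 45.3 ± 8.86, SD, n = 2). The scale of the scores is not stated, so here and below the SD between the replicates holds any difference of scale between their lists as well. Replicate 1 placed the summit 97 bp upstream and replicate 2 placed it 2 bp inside the gene, a difference of 99 bp. Both ranked peaks that came next lay in coding exons of bcd: one of score 58.4, 2640 bp past the start site, scored 38.9 in replicate 2 and only 15.4 in replicate 1, and one of 50.3 lay 1844 bp past it. Neither was thresholded. The start sites of zen and Ama had nothing higher within 500 bp than ranked peaks of 40.3 and 43.7, at ranks 15941 and 11572 of 147450, and the nearest thresholded summit was 5370 bp from zen and 3029 bp from Ama.

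The Wingless antagonist nkd had its start-site peak and a weaker intronic one that only the less strict list keeps. Gene nkd (FBgn0002945) spans chr3L:19003741-19045449 on the minus strand, 41.7 kb with 1 start site. The peak chr3L:19045426-19045749 had its summit 139 bp upstream of the start, outside annotated transcripts, with a score of 41.1 in replicate 1 and 73.0 in replicate 2 (57.0 ± 22.5, SD, n = 2). The replicates' summits, 15 and 169 bp upstream, stood 154 bp apart, the widest distance among the 6 thresholded peaks. In the first intron, 2736 bp past the start site, a peak of score 68.2 (chr3L:19042551-19042874) passed in the less strict list, where its −log10 IDR was 2.35, but not in the conservative one, where it was 0.155 (the threshold is 2). Replicate 1 held 2 peaks under it, of scores 33.2 and 6.22, and replicate 2 held 1 of 42.2. The conservative list carries 6.22 and 42.2 as the replicate scores of this peak, so the lower peak of replicate 1 is the one set against replicate 2. In the windows of all 5 genes, 141 of 196 ranked peaks overlapped a peak of each replicate's own list, and in 20 of them the score carried for replicate 1 was not that of the highest such peak, and in 16 that for replicate 2 (tolerance 0.0001). The other ranked peaks of the 51.7 kb window scored 57.6 or less. SmydA-2, the next gene downstream, had no ranked peak above 24.1 within 500 bp of its start site.

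At tin the peak stood upstream of the gene on the side of mod(mdg4), a chromatin insulator gene, whose start site it did not reach. Gene tin (FBgn0004110, chr3R:21378977-21381970, plus strand) is 2.99 kb long. The peak chr3R:21378638-21378961 had its summit 177 bp upstream of the tin start site and 1399 bp from that of mod(mdg4), where the highest ranked peak within 500 bp scored 22.7 (rank 66365). The tin peak scored 54.4 in replicate 1 and 82.8 in replicate 2 (68.6 ± 20.1, SD, n = 2), and the summits of the replicates were 23 bp apart. Next in height were ranked peaks of 53.8 in a coding exon of tin, 2556 bp past the start, and of 49.4 beyond the gene, 5014 bp past the start. The nearest start site to the latter belongs to bap, the bagpipe homeobox gene of the visceral mesoderm, and was 4889 bp away. Neither of these passed the threshold.

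The neuronal gene elav had the highest peak score of the 5 and 2 thresholded peaks. Gene elav (FBgn0260400, chrX:509235-523226, minus strand) has 2 start sites, the upstream one shared with the non-coding RNA gene lncRNA:enrr, and overlaps arg, the arginase gene, which runs on the opposite strand. The main peak, chrX:523404-523541, was 138 bp wide, against 324 bp for the other 5 thresholded peaks of the members and for 85.6% of the peaks at protein-coding start sites. High peaks were narrow in general: the 67 of those start-site peaks at or above its score, itself included, were 130 to 278 bp wide (median 204). Its summit lay 242 bp upstream of the shared start site, in an intron of arg, and its score was 150 in replicate 1 and 159 in replicate 2 (154 ± 6.77, SD, n = 2). The intronic peak, chrX:522453-522776, had its summit 611 bp past that start site, in the first intron of elav and within lncRNA:enrr and arg but in no exon of them. It scored 95.4, with 53.3 and 54.1 in replicates 1 and 2 (53.7 ± 0.568, SD, n = 2). The downstream start site of elav had no ranked peak within 500 bp in the conservative list, and the nearest thresholded summit was 2330 bp away. That list had no ranked peak within 500 bp of the arg start site either.

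The sarcomere gene sls spans 75.9 kb, and the only thresholded peak of its window lay just upstream of it. Gene sls (FBgn0086906, chr3L:2039681-2115611, minus strand) has 13 transcripts in the annotation, all from 1 start site. The peak chr3L:2115626-2115949 had its summit 177 bp upstream, outside annotated transcripts, and scored 48.7 in replicate 1 and 35.8 in replicate 2 (42.3 ± 9.16, SD, n = 2). Summits of the replicates were 34 bp apart. The next peaks, all ranked only, were one of 55.1 in a coding exon 10269 bp past the start (32.8 and 27.1 in replicates 1 and 2) and one of 45.7 in a coding exon 74588 bp past the start (40.9 and 9.58).

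**Figure D1:**
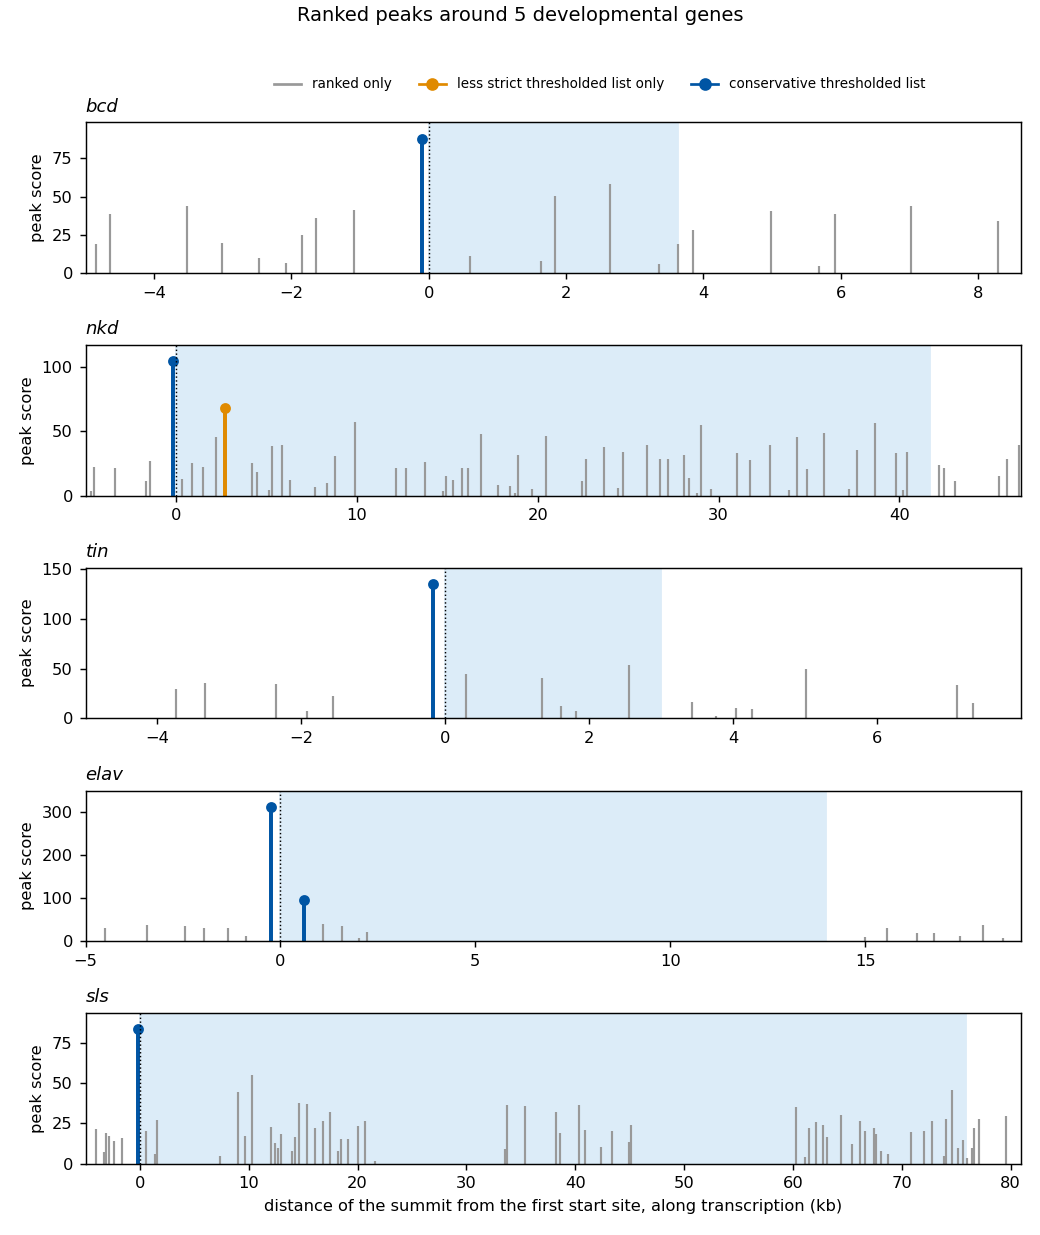
Ranked peaks of the conservative list from 5 kb upstream to 5 kb past each gene, one panel per gene, with the distance of the summit from the upstream start site along transcription on the x axis (kb) and the peak score on the y axis. Shading marks the gene, blue the thresholded peaks and orange the nkd peak that only the less strict list keeps; in each panel the highest peak stands just left of the start site.

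Of 15 start sites of 12 other genes within these windows, 1 had a thresholded summit within 500 bp, that of lncRNA:enrr, which is the elav start site itself. The windows held 6 thresholded and 196 ranked peaks of the conservative list in all. Ranked peaks averaged 1.05 per kb over the assembled arms, and their density in the windows was 1.61 per kb at bcd, 1.39 at tin, 1.32 at nkd, 0.803 at sls and 0.792 at elav. Ranked peaks were missing from long stretches in elav and sls. At elav the conservative list had no ranked summit over 12.8 kb, beginning 2.22 kb past the upstream start site. The longest empty stretch there was 13.8 kb in replicate 1, 5.77 kb in replicate 2 and 2.35 kb in the less strict list. At sls the conservative list was empty from 45.1 to 60.2 kb past the start, and its longest empty stretch was 13.95 kb in replicate 2, 5.75 kb in replicate 1 and 13.6 kb in the less strict list. Which replicate lacked ranked peaks therefore differed between these genes.

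Each replicate alone called 3 of the 5 start-site peaks, and they were not the same ones. In the own thresholded list of replicate 1 the peaks of bcd, nkd and elav passed, where 6.56% of protein-coding genes were called. In that of replicate 2 the peaks of nkd, tin and elav passed, where 5.87% of protein-coding genes were called. So nkd and elav were called by both replicates, bcd by replicate 1 alone, tin by replicate 2 alone, and sls by neither. Among all 1214 genes of the conservative list, 51.3% were called by both replicates, 16.1% by replicate 1 alone, 12.1% by replicate 2 alone and 20.5% by neither. These lists come from the same reads as the pooled list that chose the members, so these counts are a description only.

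The peaks that missed a replicate's threshold did so by unequal margins. The −log10 IDR of the tin peak was 1.77 in replicate 1 against 4.15 in replicate 2, and that of bcd was 2.14 in replicate 1 against 1.65 in replicate 2. For sls the values were 0.908 in replicate 1 and 1.83 in replicate 2, although its pooled value was 2.53. The ranked list of each replicate carries 2 further scores per peak, whose source is not stated, and at sls these were 43.4 and 14.7 in replicate 1, the most unequal pair of the members, against 16.8 and 22.3 in replicate 2. At tin they were 18.2 and 41.0 in replicate 1 and 42.5 and 40.7 in replicate 2. The elav start-site peak had 4.73 and 5, the intronic one 2.43 and 2.84, and nkd 2.56 and 3.81, all past the threshold of 2.

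**Figure D2:**
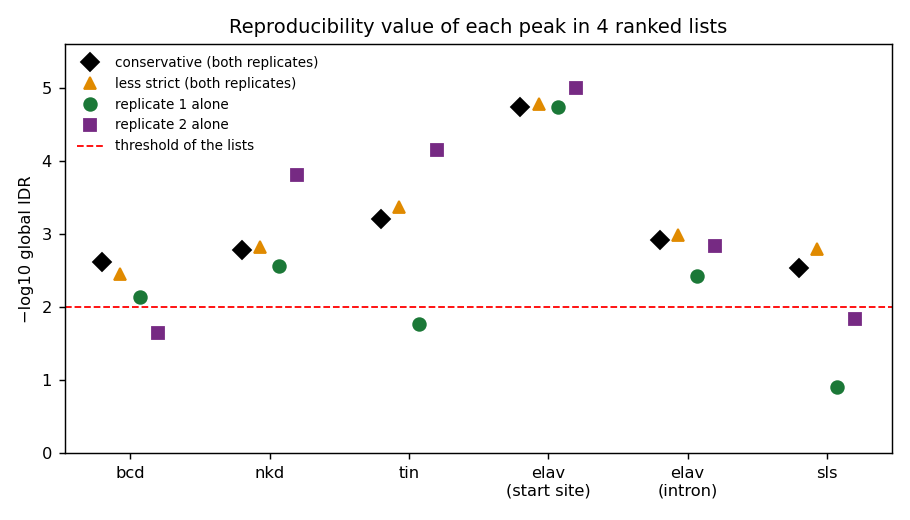
The −log10 of the global IDR (y axis, higher is more reproducible) of the 6 thresholded member peaks (x axis) in the conservative and less strict lists of both replicates and in each replicate's own list, with the threshold of 2 as a dashed line. Points under the line are tin in replicate 1 (1.77), bcd in replicate 2 (1.65) and sls in both (0.908 and 1.83).

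Relative to all conservative peaks, replicate 1 had a low share of the score at nkd and tin and a share above the median at bcd and sls. Since the scale of each list is not stated, a share is read here only against that of the other peaks. Replicate 1 gave 36.0% of the summed replicate scores at nkd and 39.6% at tin. Over the 2042 conservative peaks on the arms this share had a median of 52.5% (5th to 95th percentile 39.7 to 67.2), and 2.11% of peaks had a lower share than nkd and 4.75% a lower one than tin. At bcd (56.9%), sls (57.7%), the elav start site (48.4%) and the elav intron (49.6%) the share was nearer to the median. By rank, the nkd peak was number 2159 of 128242 in replicate 1 and number 509 of 118490 in replicate 2, and the tin peak was number 1108 and number 410. At bcd and sls the order was the other way, with ranks 1254 and 1651 for bcd and 1395 and 2005 for sls. With 1 score per replicate, no error can be put on a single share.

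**Figure D3:**
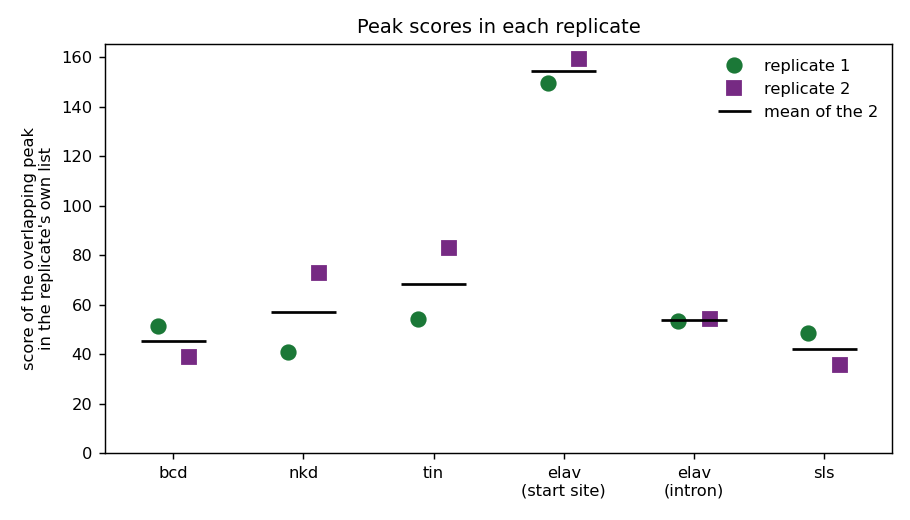
Score in the own ranked list of each replicate (y axis) for the 6 thresholded member peaks (x axis), circles for replicate 1, squares for replicate 2 and bars for their mean. The point of replicate 2 lies higher at nkd and tin (73.0 and 82.8 against 41.1 and 54.4) and that of replicate 1 at bcd and sls (51.5 and 48.7 against 39.0 and 35.8), on scales not known to be the same.

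The position upstream of the start site is the usual one for these data. Summits were upstream in 5 of 5 members, and in 86.4% of the 1214 genes with a thresholded summit within 500 bp. The members lay 98 to 242 bp upstream, and 46.0% of those genes had their nearest summit in the same range, with a median of 148 bp among the 1049 genes with an upstream summit. Most replicate and pooled peaks had a set width (290 bp for 11 of the 12 replicate peaks at the members), and their summits sit at the centre, so distances are written more finely than a summit fixes a place. The farthest member inside the limit of 500 bp was elav at 242 bp. Among the other developmental genes examined, tmod at 408 bp was the closest to the limit from inside, and pum (641 bp upstream, score 125), swa (776 bp upstream, 85.1) and Actn (846 bp downstream, 78.9) were just outside it.

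**Figure D4:**
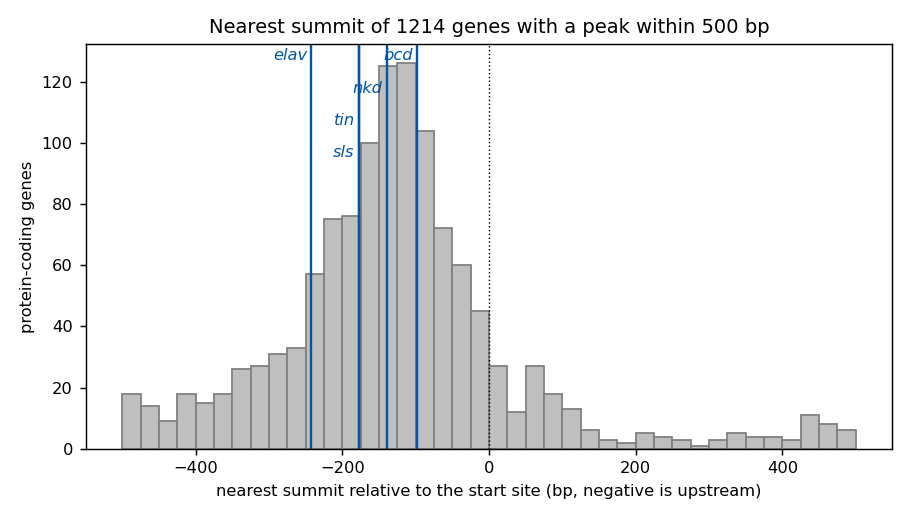
Distance of the nearest thresholded summit from the start site (x axis, bp, negative is upstream) for the 1214 protein-coding genes with one within 500 bp, as counts of genes in bins on the y axis. Blue lines mark bcd (98 bp upstream), nkd (139), tin and sls (177 each) and elav (242), all upstream of the start site.

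The sequence at the summits was richest in A and T at bcd and the elav start site, and the 6 windows held few known motifs. Within 50 bp of the summit the GC content was 21.8% at bcd, 28.7% at the elav start site, 33.7% at nkd, 35.6% at tin, 42.6% at sls and 47.5% at the elav intron, against a median of 34.7% over all conservative peaks on the arms and 43.6% over windows of the same width at all start sites. Of the 12 motifs, searched on both strands, 10 had no match in any of the 6 windows: TATCGATA (the DRE), CGATA (the BEAF-32 core, contained in the DRE), CAGGTAG (Zelda), TGCATA (the Su(Hw) core), GGTCACAC (the Motif 1 core), CAGCTG and CACGTG (E-boxes), AGNNGGCGC (a CTCF core), GGATTA (the Bicoid site core) and CACTTNA (the Tinman site core). TGCATA was present in 10.9% of all conservative peaks and in 3.74% of start-site windows, CGATA in 14.4% and 21.4%, CACTTNA in 7.10% and 6.14%, and the others in under 4% of peaks. TATAAA was matched at tin, 8, 10 and 29 bp upstream of the summit in the sequence above, and is held by 19.6% of peaks and 14.97% of start-site windows. GAGAG was matched at the elav intron, and is held by 9.70% of peaks and 12.5% of start-site windows.

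Apart from the elav intron, matches to GAGAG on the printed stretches lay between the summit and the start site, more than 50 bp from the summit. On the stretch printed for elav there were 6, from 144 to 63 bp upstream of the start site, in both orientations and 100 bp or more from the summit. On that for sls there were 3, from 114 to 30 bp upstream, and on that for nkd there was 1, 86 bp upstream. The stretches of bcd and tin held none. Widening the window to 150 bp on each side of the summit put GAGAG in 5 of the 6 member windows, all but tin, against 37.6% of all conservative peaks and 32.8% of start-site windows of the same 301 bp. The cores bound by Bicoid and Tinman were in none of the member windows at that width either, and TGCATA was then in 2 of them, at tin and in the elav intron, against 22.8% of peaks. At that width the CTCF core AGNNGGCGC was in the elav intron window, against 5.19% of peaks. TATAAA was then at nkd and tin, against 41.0% of peaks. A match describes these letters and does not show a bound site, and its absence says nothing of the factor.

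Genes that share a role with the members were gathered in 7 lists of 118 genes in all, members included. Of these, 9 (7.63%) had a thresholded summit within 500 bp, and without the 5 members 4 of 113 (3.54%), where 8.69% of all protein-coding genes had one. The members were chosen for having such a summit, which raises the former share by choice and lowers the latter by leaving bound genes out, so neither is read against the 8.69%. The 4 others were sgg, the Shaggy kinase that marks Armadillo for destruction in the Wingless pathway, exu, which encodes a protein needed to localise bicoid RNA, tmod, the actin filament capping protein tropomodulin, and Apc2, a partner of Shaggy in the destruction complex. The sgg peak was the highest, at 210 with 106 and 101.2 in replicates 1 and 2, and lay 212 bp upstream. The exu peak scored 87.1 (50.8 and 29.7, 48 bp upstream), the tmod peak 81.3 (32.9 and 51.2, 408 bp upstream) and the Apc2 peak 66.6 (38.3 and 37.8, 205 bp upstream). The exu peak also lay 73 bp upstream of galla-1, and the Apc2 peak 216 bp upstream of mRpS24. Those peaks therefore cannot be assigned to exu or to Apc2 alone. Counting ranked peaks of any height, 79.6% of the 113 had a ranked peak within 500 bp, with a median best score of 32.3, and over all protein-coding genes these were 79.3% and 32.3.

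By role, 3 of 19 Wingless pathway genes, 2 of 18 maternal and gap genes and 2 of 23 sarcomere genes were called, each count with 1 member in it. None of 14 pair-rule and segment polarity genes was called, and no gene but the member in the lists of the Antennapedia complex, of heart and mesoderm and of the ELAV family and neurons. So bcd was the only one called of its 9 homeobox genes (11.1%) and tin of 19 heart and mesoderm genes (5.26%). The gene elav was the only one called of 19 neuronal genes (5.26%), its relatives fne and Rbp9 included. Over all protein-coding genes the share called was 8.69%, so few or no called genes in a list this short are not read as a result. The gene wg, which encodes the Wingless ligand, was called in the own list of replicate 1 but not in the conservative one, where its best ranked start-site peak scored 49.9. The lists hold few genes each, the members were taken because they are bound, and no list was tested.

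**Figure D5:**
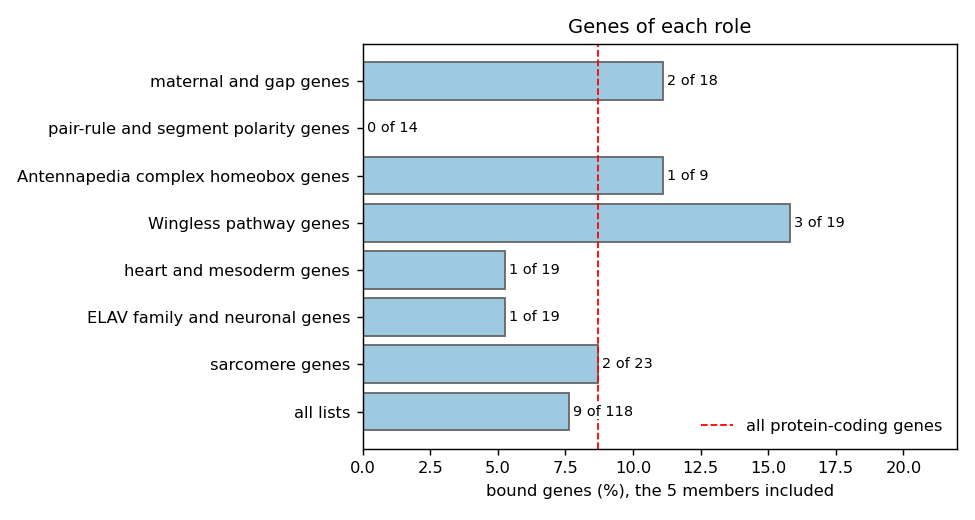
Share of genes with a conservative thresholded summit within 500 bp of a start site (x axis, %) in 7 lists and over all of them, with the 5 members included and counts beside the bars. The dashed line is the 8.69% of all protein-coding genes, and the bar over all lists is at 7.63% (9 of 118) with the members, which were chosen for being bound, and would be at 3.54% (4 of 113) without them.

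The peaks nearest in score to those of the members were taken as the single peaks next above and below among the 2042 on the arms, each named by the gene with the nearest start site. The elav start-site peak stood between those of RhoGAP19D, 7726 bp from the start site, and CG3009 (both 313). The tin peak stood between those of CG5096 and the pseudogene CR42875 (both 135). The score of the CR42875 peak, 134.813, was also that of the peak within 500 bp upstream of the protein-coding gene CG10068. That peak is therefore not assigned to the pseudogene alone. The nkd peak came between sut1 (105) and Nhe3 (104). The bcd peak came between CG12617 (87.9, 7289 bp from the start site) and the ribosomal protein gene RpS23 (87.8), and the sls peak between CG2217 (83.2, 9006 bp away) and the pseudogene CR46447 (83.1, 5829 bp away). The elav intronic peak had the translation factor gene eIF3c below it (95.3) and a peak whose nearest start site is that of ems above it (95.4, 13077 bp away). The gene ems encodes the head gap homeodomain protein Empty spiracles, and it is listed here among the gap genes.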

How the data were processed

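The deposited files are peak lists of the 2 replicates, together and each alone, thresholded or ranked, on dm6 per the deposited description files; the sources used here do not name an aligner or peak caller. The authors' signal value of each peak is used as its score, within a list. The deposited ranked lists also give each peak a −log10 global IDR. Every thresholded peak had at least 2.00, yet 97 of the 2191 conservative ranked peaks past 2 were not in the thresholded list. The conservative ranked list was told apart by its score columns, which matched the replicates' own scores in 81.8% and 76.8% of peaks, against 4.80% and 5.01% in the less strict one. Genes and start sites came from Ensembl release 115 (BDGP 6.54) and sequence from RefSeq Release 6; every arm's last peak end lay within its length, and 4 listed names were matched through RefSeq synonyms. Summits were assigned to start sites within 500 bp, windows ran 5 kb past each gene, and a replicate score is that of the highest overlapping peak in its own ranked list. Python 3.11.15, numpy 2.4.6 and pandas 2.3.3 were used, and distances and motif search were tested on simulated data. Members and lists were chosen with earlier results of these data known. The genes named follow a rule: the members, genes at the peaks of their windows, bound list members, neighbours in score and list genes just beyond 500 bp. Also named are protein-coding genes that share the peak of a bound list member or of a neighbour in score. Alternatives were another list, one replicate, other distances, windows, overlaps and gene assignments. The labels call the samples biological replicates; a control experiment they name was not analysed here.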

Additional observations from a re-analysis of the deposited data

How the results depend on the processing

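The count of 6 thresholded peaks in the member windows came to 3 with only peaks at or above the median score of the whole conservative list, 7 with the less strict list, 4 with either replicate alone, and 6 and 9 in windows of 2 and 10 kb. All 5 members stayed bound with the less strict list, at 250 and 1000 bp, with the nearest start site only and with protein-coding start sites only. They numbered 3 without replicate 2 and 3 without replicate 1, and 3 at or above 98.0, the median score of all conservative peaks, where bcd and sls were lost. The count of listed genes bound, 9 with the members, was 5 to 6 with a single replicate's list and 4 at or above the median score. The 6 of replicate 1 include wg, which is not one of the 9. Matches of a motif in a member window numbered 2 within 50 bp of the summit, 5 within 100 bp and 10 within 150 bp, as wider windows hold more sequence. All other alternatives left these counts within 1.5 times their value. Of the other values recomputed (counts in each list, scores of single peaks), 56 held and 11 moved, all of them counts in a list. No paired analysis was possible because the replicates form 1 group. The lists hold no read counts, so depth and counting error are unknown. The replicates' own lists share their reads with the list that chose the members, so their calls are no independent check. The scale of the scores is not stated, so ranks within a list are firmer than values set side by side between the replicates.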

Other observations

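The 2 elav summit windows shared a run of 11 letters in opposite orientation, a feature looked for after the windows were seen. On the strand of elav it reads GTATTTACAGA at the start-site peak and TCTGTAAATAC at the intronic peak. No conservative peak on the arms other than these 2 elav peaks held it within 50 bp of the summit, in either orientation, and of 23694 start-site windows 2 held it. Any given run of 11 letters is rare, and this one was taken from these windows. Its absence from other peaks is therefore not read as a result.

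Words of 8 letters that were more common at all conservative summits than 300 bp to either side were ordered by the difference between the 2 shares. The leading one, ATTTAAAA, was in 6.61% of summit windows and 1.98% of flanking ones, and of the member windows only that of bcd held it. The word ranked sixth, ATATTTTA (5.34% and 1.98%), was in the windows of tin and of the elav start site. The word ranked second, AAAGTATG (4.11% and 0.563%), was in none of the 6, nor was the third, AAGTATGC (3.97% and 0.465%). Taken as a ratio to the flanking share, both were more enriched than ATTTAAAA.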
